A study of Mus musculus with 4 samples.

Results

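Meis binding was examined around Aldh1a2, Cyp26b1 and Rarb, the genes for synthesis, breakdown and reception of retinoic acid. The members were the summits of the FL and HL peak lists that fell in a window around each gene in mm9, namely 70.7 to 71.4 Mb of chromosome 9 for Aldh1a2, 84.2 to 84.9 Mb of chromosome 6 for Cyp26b1 and 17.0 to 17.9 Mb of chromosome 14 for Rarb. The windows held 52 of the 22906 FL summits and 36 of the 17810 HL summits. Chromatin came from pooled FL or HL buds of wild-type mouse embryos at E10.5 and antibodies to Meis1 and Meis2 were used to precipitate it. Per limb there was 1 ChIP library and, from chromatin before precipitation, 1 input library. A summit is the highest point of a peak, its fold is the ratio of ChIP signal to input background, and its q is the p-value of the authors' peak caller adjusted for the number of positions tested. Neither limb had a replicate, so values of FLs and HLs are set side by side as a description, and no difference between the limbs was tested.

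Retinoic acid is a small lipophilic signal made from vitamin A. Aldh1a2 carries out its last synthetic step in the mesoderm of the trunk and flank, and Cyp26b1 oxidises it in the distal limb bud, so that the proximal bud is the part exposed to it. The signal acts through nuclear receptors such as Rarb, which bind as heterodimers with Rxr proteins to short repeated elements in DNA, and Rarb is itself a classical retinoic acid target. Meis1 and Meis2 are homeodomain proteins of the proximal limb bud whose expression retinoic acid sustains. The question addressed here is where Meis proteins in turn were bound around the genes of this pathway.

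All 3 windows held summits that passed a q of at most 0.05, the cutoff used here to call a summit. In FLs 15 of the 52 summits passed (28.8%, 95% Wilson interval 18.3 to 42.3%), against 17.5% of the whole FL list. In HLs 9 of the 36 passed (interval 13.8 to 41.1%), against 10.3% of the whole HL list. These counts take summits of the same peak as separate members. Counted as peaks, 12 of 46 passed in FLs (26.1%, 15.6 to 40.3%), an interval that includes the 17.4% of all FL peaks, and 8 of 31 in HLs (25.8%, 13.7 to 43.2%), beside 10.1% of all HL peaks. The windows were chosen with earlier results known, and no test was made, so neither interval is read as a test in either direction. Most summits were weak, and 32 FL and 23 HL summits of the windows had a q of 1, as did 68.5% of the FL list and 78.4% of the HL list. The median fold was 2.79 in FLs and 2.88 in HLs, beside 2.78 in either whole list.

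Summits were also dense over the 3 windows taken whole. The FL list held 22.6 summits per Mb over the 3 windows and 8.71 per Mb over all chromosomes. For the HL list these densities were 15.7 and 6.77. Summits of the same peak were again counted separately, and gaps of the assembly were not taken out of the chromosome length. More than 100 kb from the starts used lay 15 of 21 FL summits at Aldh1a2, 13 of 14 at Cyp26b1 and 16 of 17 at Rarb. In HLs these were 11 of 19, 9 of 9 and 7 of 8. Called FL summits were most dense at Aldh1a2, with 10 per Mb, followed by Rarb with 5.56 and Cyp26b1 with 4.29, beside 1.52 over all chromosomes. In HLs there were 7.14 per Mb at Aldh1a2, 4.29 at Cyp26b1 and 1.11 at Rarb, beside 0.70 over all chromosomes. Within 100 kb of the start that the mm9 distances gave, 3 of 6 FL and 3 of 8 HL summits were called at Aldh1a2. Hardly any summit was listed within that distance of the other starts, with 1 FL and 0 HL summits at Cyp26b1 and 1 in each limb at Rarb, and 0 of these were called. For Rarb that start is an outer one. Within 100 kb of its inner start, described below, the called summits were those at 17355671 and 17408044 in FLs and at 17355711 in HLs. Both lists also held uncalled summits within that distance. These called summits are therefore named as sites, not as a share to set beside the 17.5% of the FL and 10.3% of the HL list.

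**Figure D1:**
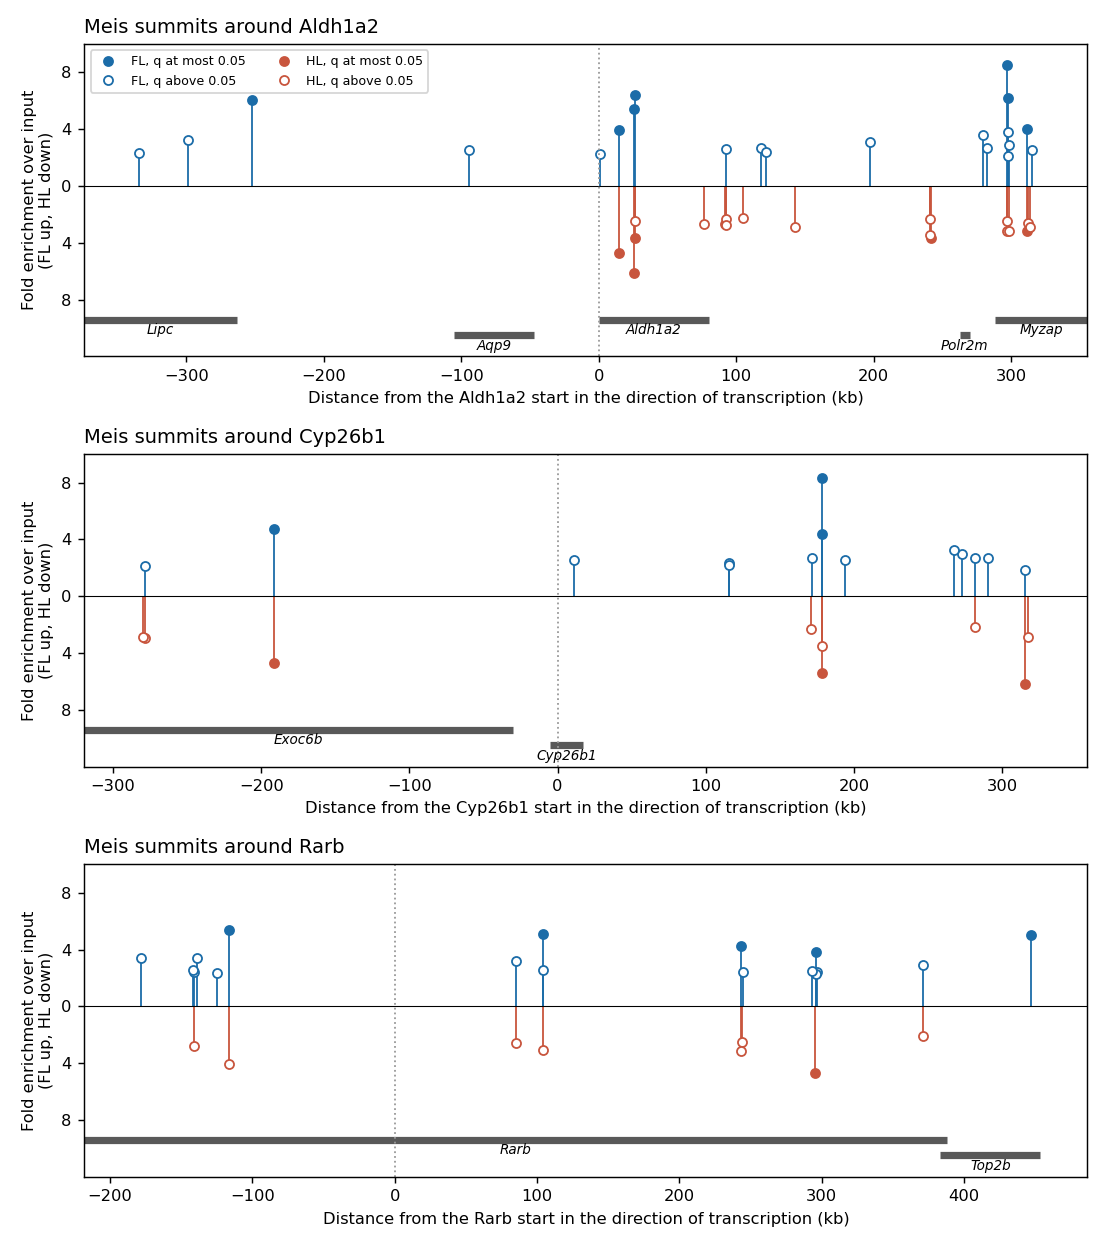
Fold enrichment over input of every FL summit (upward, blue) and HL summit (downward, red) against its distance in kb from the start of Aldh1a2, Cyp26b1 or Rarb, with filled points for q at most 0.05 and grey bars for protein-coding genes placed at their GRCm38 distances. The highest FL folds, 8.55 and 8.29, stood 297 kb from Aldh1a2 and 178 kb from Cyp26b1, and no called summit stood within 10 kb of the starts at 0.

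Aldh1a2 encodes the retinaldehyde dehydrogenase that makes retinoic acid in the embryo. Its window held 21 FL summits in 17 peaks and 19 HL summits in 15 peaks, of which 7 FL (33.3%) and 5 HL (26.3%) summits passed the cutoff, beside 17.5% and 10.3% of the lists. The start of the gene in mm9 was at position 71063596 of chromosome 9, and in GRCm38 the gene covers 80.45 kb. In GRCm38 the starts of Polr2m and Cgnl1 lie 270146 and 555813 bp from that of Aldh1a2, the same distances as in mm9. The distance to Ccnb2 on the other side is also equal, at 794235 bp. Places within genes are therefore given below as what GRCm38 holds at the same distance from the start, and no coordinate was converted.

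The called summits inside Aldh1a2 were all in intron 1 and were found in both limbs. The nearest pair was 14.5 kb from the start, with an FL peak at chr9:71077989-71078157 and an HL peak at chr9:71077921-71078152. Its fold was 3.92 in FLs (q = 0.0174) and 4.71 in HLs (q = 0.00263), and the summits were 4 bp apart. The higher pair was about 26 kb from the start, with an FL peak at chr9:71089343-71089977 and an HL peak at chr9:71089258-71090198. The peaks of this pair were broad in both limbs and contained more than 1 summit each. In FLs the summit at 71089813 had a fold of 6.38 (q = 2.60e-07) and the summit at 71089519 a fold of 5.45 (q = 2.80e-06). In HLs the order was the opposite, with a fold of 6.12 (q = 2.29e-09) at 71089488 and of 3.66 (q = 1.72e-04) at 71089813. Both lists thus placed a summit at the same base, 71089813, while the higher summit of the pair was the downstream one in FLs and the upstream one in HLs. At 941 bp the HL peak was wider than 99.9% of HL peaks.

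At the start of Aldh1a2 itself the data showed little. The nearest FL summit was 0.674 kb downstream of the start, also in intron 1, with a fold of 2.24 and a q of 1. In HLs no summit was listed nearer than the intronic pair at 14.5 kb. Upstream of the gene the HL list held 0 summits in the window and the FL list held 4. One of these passed the cutoff, at chr9:70811234-70811442, 252 kb upstream, with a fold of 6.06 (q = 9.78e-06). At that distance GRCm38 holds no protein-coding gene, between Lipc, which encodes hepatic lipase, and Aqp9, which encodes a water and glycerol channel. It was one of 2 called FL peaks in the 3 windows without an overlapping HL peak.

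The highest FL summit of all 3 windows was far downstream of Aldh1a2. The FL peak at chr9:71360681-71361725 was 1045 bp wide, more than 99.9% of FL peaks, and held 4 summits, and only 40 of the 21338 FL peaks, this one included, held as many or more. Its highest summit, at 71360874, had a fold of 8.55 (q = 1.43e-12) and lay 297 kb from the Aldh1a2 start. At that distance GRCm38 holds intron 12 of the RefSeq transcript of Myzap, a gene for a protein of cardiac cell junctions, beyond the RNA polymerase subunit gene Polr2m. The HL list had a peak at the same place, chr9:71360725-71360952, with a summit 5 bp away and a fold of 3.18 that did not pass the cutoff (q = 0.514). The log2 ratio of FL to HL fold was 1.43, a value reached by 79 of the 4813 overlapping pairs of the lists (1.64%), whose median was 0.17. A neighbouring pair 312 kb from the start was called in both limbs, with folds of 4.03 in FLs (q = 1.21e-04) and 3.16 in HLs (q = 0.00686) and summits 2 bp apart.

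The HL list had 1 called peak without an FL partner, at chr9:71304744-71305162, 241 kb downstream of the Aldh1a2 start and before Polr2m. It held 3 summits, and only the one at 71305039 passed, with a fold of 3.62 and a q of 0.0460 close to the cutoff. Beyond the end of Aldh1a2, 92.4 kb from the start in FLs, weak FL and HL peaks overlapped with folds of 2.59 and 2.74 and a q of 1 in both limbs. The sites called in both limbs around Aldh1a2 were thus the pair of intronic sites and the site 312 kb away, joined by the site 297 kb away where a p of at most 0.0005 was the cutoff.

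**Figure D2:**
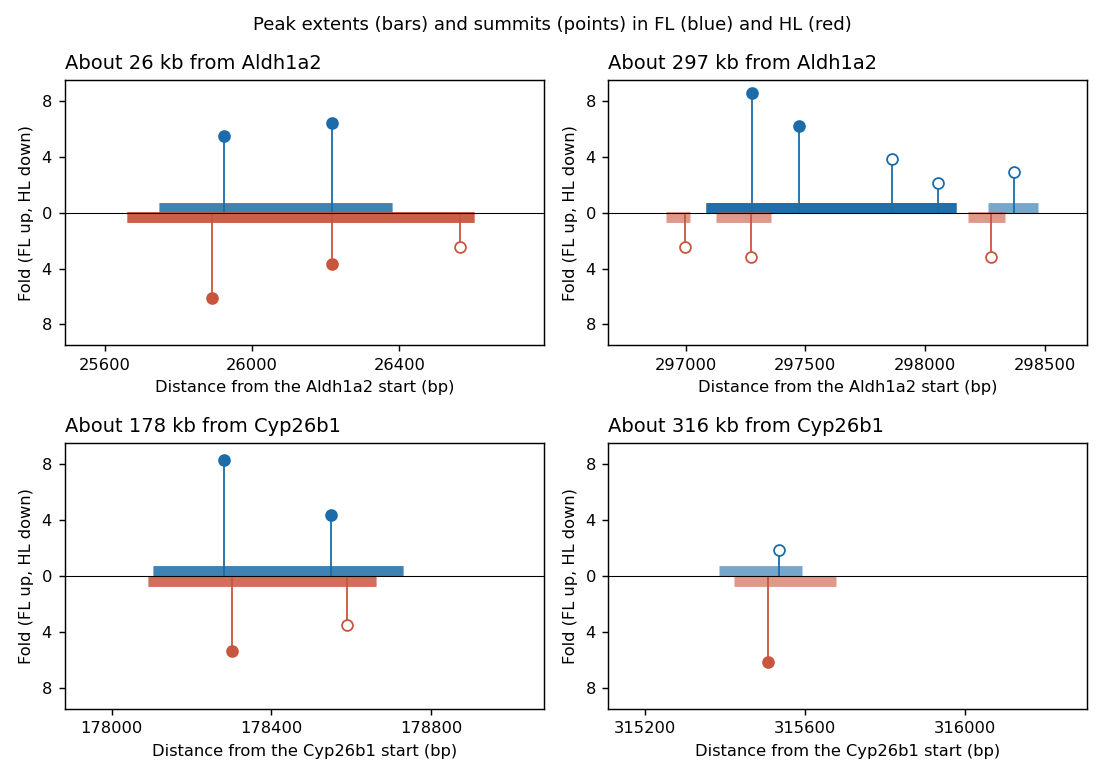
Peaks (bars along the zero line) and their summits (points at their fold enrichment, filled for q at most 0.05) in FLs (blue, upward) and HLs (red, downward) at 4 sites, against the distance in bp from the start of Aldh1a2 or Cyp26b1. FL and HL folds were 6.38 and 6.12 in intron 1 of Aldh1a2, 8.55 and 3.18 at 297 kb, 8.29 and 5.38 at 178 kb from Cyp26b1, and 1.84 and 6.18 at 316 kb.

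Cyp26b1 encodes a cytochrome P450 enzyme that breaks retinoic acid down. Its window held 14 FL summits in 13 peaks and 9 HL summits in 8 peaks, and 3 summits passed in each limb (21.4% in FLs and 33.3% in HLs, beside 17.5% and 10.3% of the lists). Counted as peaks, 2 of 13 passed in FLs (15.4%), beside 17.4% of all FL peaks. The start worked out for mm9, position 84538632 of chromosome 6, matches an inner transcript start in GRCm38. The distances from it to Dysf and Emx1, which flank the window, are 569249 and 598800 bp in both builds. The outermost Cyp26b1 start in GRCm38 lies about 5 kb further upstream. No called summit fell inside the 22.5 kb of the gene in either limb. The nearest FL summit, 11.4 kb downstream of the start and within an intron, had a fold of 2.54 and a q of 1, and the HL list had no summit within 100 kb.

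The called sites of Cyp26b1 were all more than 100 kb away, and at each of them both limbs had a peak. The highest was downstream of Cyp26b1 towards Dysf, 178 kb from the start, with an FL peak at chr6:84359902-84360530 and an HL peak at chr6:84359969-84360541. Its fold was 8.29 in FLs (q = 8.63e-14) and 5.38 in HLs (q = 6.41e-07), with summits 20 bp apart, and the log2 ratio was 0.62. Each of these peaks had a lower summit about 300 bp further from the gene, with folds of 4.34 in FLs (q = 0.0143) and 3.48 in HLs (q = 0.169). The FL peak had a higher fold than 98.4% of FL peaks. Upstream of Cyp26b1, 191 kb from the start, FL and HL summits at 84730101 and 84730110 had nearly equal folds of 4.73 (q = 4.23e-05) and 4.67 (q = 0.00272). That distance lies in intron 19 of Exoc6b, which encodes a subunit of the exocyst complex, in GRCm38.

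The remaining called site of this window was higher in HLs. At 316 kb downstream of the Cyp26b1 start, the HL peak at chr6:84222953-84223210 had a fold of 6.18 (q = 1.96e-07), the highest of the 36 HL summits. The FL peak at chr6:84223038-84223247 overlapped it, with a summit 28 bp away, a fold of 1.84 and a q of 1, the lowest fold of the 52 FL summits. The log2 ratio of FL to HL fold was -1.75, and only 6 of the 4813 pairs in the lists (0.125%), this one included, had a ratio this low. With 1 library per limb, a difference between limbs and a difference between these libraries cannot be told apart.

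Rarb encodes a retinoic acid receptor and has several starts. The start that the mm9 distances gave, at position 17651381 of chromosome 14, is an outer one, and the RefSeq transcripts of GRCm38 include one about 263 kb further upstream and a well-studied inner start. The window held 17 FL summits in 16 peaks and 8 HL summits in 8 peaks. In FLs 5 summits passed (29.4%, beside 17.5% of the list), and in HLs 1 did (12.5%), close to the 10.3% of the list. All but 1 of the FL summits and all HL summits lay within the span that Rarb transcripts cover in GRCm38. That span is 651.49 kb long and takes up most of the 900 kb window.

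One called FL peak lay at the inner Rarb start. This peak, at chr14:17407663-17408154, had its summit 210351 bp from the start of the neighbouring gene Top2b, and in GRCm38 the inner Rarb start lies 210270 bp from the RefSeq start of Top2b. By that measure the summit was 81 bp upstream of the inner start, and by the GENCODE start of Top2b it was 54 bp upstream. Measured from the outer Rarb starts, for which the distances of the builds are not equal, the summit would be 192 or 343 bp upstream. All 4 measures put the inner start within the FL peak. The GENCODE transcript Rarb-207 starts further upstream, and by distance the FL summit fell in its exon 1. The fold of the summit was 4.22 (q = 0.00992). The HL list held an overlapping peak at chr14:17407630-17407827 with a fold of 3.17 and a q of 1, whose summit was 291 bp further along the gene. The promoter of this start is printed because it is the only start of the 3 genes at which a called summit was found. It is the RefSeq sequence of GRCm38.p6, chr14:16575427-16575726, minus strand, from 250 bases before to 50 bases after the start, with motif matches in capitals.
Rarb: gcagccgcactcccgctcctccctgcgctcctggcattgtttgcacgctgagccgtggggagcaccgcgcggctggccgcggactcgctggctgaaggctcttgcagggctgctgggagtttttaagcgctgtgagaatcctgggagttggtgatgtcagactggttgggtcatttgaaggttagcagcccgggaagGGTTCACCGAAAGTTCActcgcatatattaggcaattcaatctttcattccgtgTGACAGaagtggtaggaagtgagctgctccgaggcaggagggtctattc

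The first stretch of capitals is a direct repeat of the half-site AGTTCA or GGTTCA with 5 bases between, the kind of element that binds retinoic acid receptors, searched for because Rarb is known for it. It lies 53 to 37 bases before the start, and the same form, searched on both strands, was present in 13 of 32851 promoters of this length (0.0396%). The capitals near the end are TGACAG, the hexamer that Meis proteins prefer, 2 to 7 bases after the start, which 19.2% of the promoters held on either strand. The octamers TGATTTAT and TGATTGAT, typical of Hox and Pbx proteins, occurred in 0.977% and 0.746% of promoters and had no match in that of Rarb. The promoters of Aldh1a2 and Cyp26b1, also matched by symbol, held none of the 4 motifs. For Cyp26b1 the stretch was chr6:84593761-84594060 of GRCm38, picked by symbol and not by the inner start from which its distances were measured. These matches describe the letters of the reference, and whether they lie under the summit in mm9 could not be read, because sequence of that build was not used here.

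**Figure D3:**
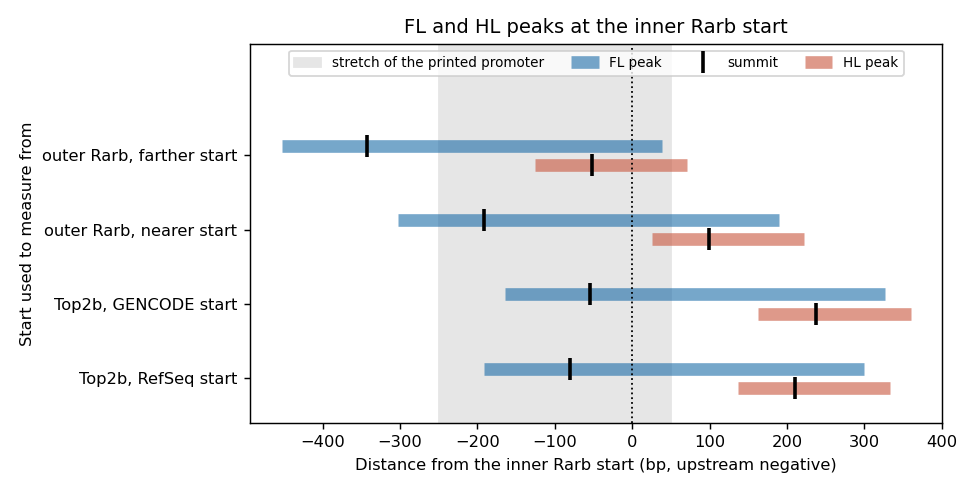
Extents of the overlapping FL (blue) and HL (red) peaks and their summits (black ticks) relative to the inner Rarb start, in bp, with the peak placed by its distance from each of 4 neighbouring starts (rows). The FL summit fell 54 to 343 bp upstream of the start, and the FL peak covered the start in every row.

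The other called FL sites of Rarb were spread over the gene. An FL peak at chr14:17546862-17547114, 104 kb from the outer start and in an intron, had a fold of 5.13 (q = 5.19e-05). Over it lay an HL peak with its summit 11 bp away, a fold of 3.07 and a q of 1. The highest FL fold of the window, 5.36 (q = 7.53e-05), was at chr14:17767611-17767867, 116 kb upstream of the outer start and within intron 1 of the longest RefSeq transcripts. Its HL partner had a fold of 4.03 and a q of 0.0806, just short of the cutoff, so that the log2 ratio was 0.41. A weaker pair 85.1 kb from the outer start had folds of 3.16 (q = 0.0920) and 2.55 (q = 1) with summits 2 bp apart. In both limbs a peak was thus listed at these sites, and at a q of at most 0.05 only the FL peaks at 104 and 116 kb passed.

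At a q of at most 0.05, only 1 site of Rarb was called in both limbs, and there the HL fold was higher. It was 296 kb from the outer start, within an intron shared by the short and the long transcripts, with an FL peak at chr14:17355336-17355736 and an HL peak at chr14:17355545-17355800. Its fold was 3.81 in FLs, with a q of 0.0497 at the edge of the cutoff, and 4.72 in HLs (q = 0.00466). With a p of at most 0.0005 as the cutoff, 4 of the 7 pairs of Rarb were called in both limbs, beside 54.2% of all pairs, the others being those at the inner start and at 104 and 116 kb, and in these 3 the FL fold was higher. The HL summits there had p-values of 4.18e-04, 2.37e-04 and 6.42e-06, and 37.4% of HL and 32.1% of FL summits in the lists passed this looser cutoff. The remaining called FL peak, at chr14:17204463-17204732 with a fold of 5.003 (q = 5.36e-04), was outside Rarb. It lay in intron 1 of Top2b, which encodes a DNA topoisomerase and is transcribed from the opposite strand, 447 kb downstream of the outer Rarb start, and no HL peak overlapped it.

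Peaks around the 3 genes were often shared by the limbs. An HL peak shared at least 1 bp with 19 of the 46 FL peaks (41.3%, Wilson interval 28.3 to 55.7%), beside 22.6% of all FL peaks. The reverse count was 20 of the 31 HL peaks (64.5%, 46.9 to 78.9%), beside 29.0% of all HL peaks. By gene, 6 of 17 FL peaks at Aldh1a2, 6 of 13 at Cyp26b1 and 7 of 16 at Rarb had an HL partner. Among peaks with q at most 0.05 the shares were closer to those of the lists, with 10 of 12 in FLs beside 67.0%, and 7 of 8 in HLs beside 89.3%. At Rarb 7 of the 8 HL peaks, most of them below the cutoff, lay over an FL peak.

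The folds of the 19 pairs did not lean to 1 limb more than those of the lists. FL was higher in 12 of the 19 pairs and HL in 7, and over all pairs FL was higher in 62.1%. The median log2 ratio was 0.21 over the 19 pairs, beside 0.17 over all, with quartiles of -0.18 and 0.54. By gene it was -0.01 at Aldh1a2, 0.11 at Cyp26b1 and 0.41 at Rarb, where FL was higher in 5 of 7 pairs. In 14 of the 19 pairs the highest summits were within 50 bp of each other, with a median of 28.0 bp beside 30.0 bp over all pairs. The largest distance, 325 bp, was that of the intronic Aldh1a2 site, where the higher of its summits differed between the limbs. Of the 19 pairs 6 were called in both limbs (31.6%, beside 24.9% of all pairs), 3 at Aldh1a2, 2 at Cyp26b1 and 1 at Rarb. With a p of at most 0.0005 as the cutoff, 10 of the 19 were (52.6%), beside 54.2% of all pairs.

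**Figure D4:**
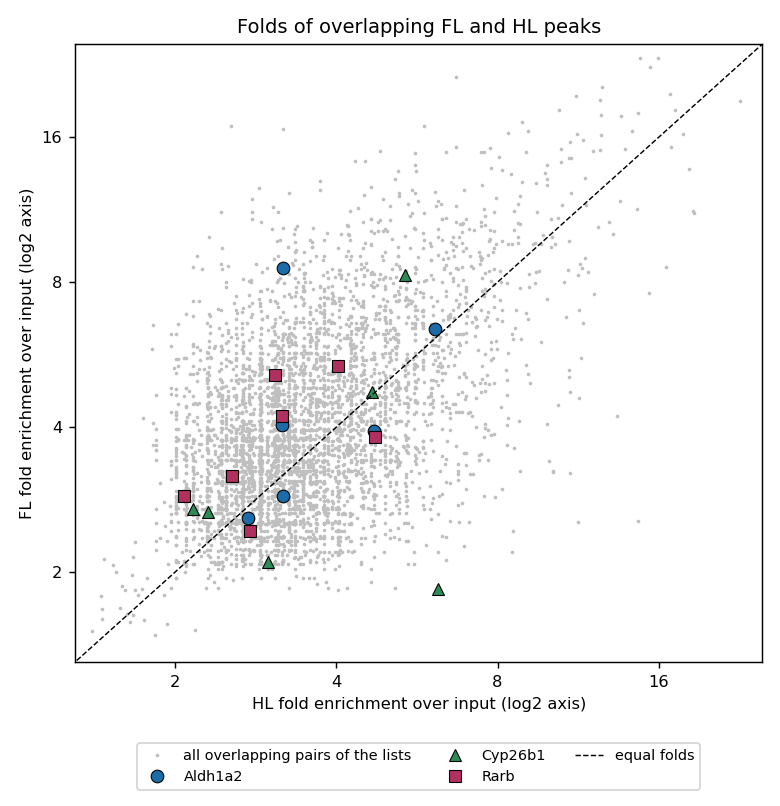
FL fold against HL fold, both on log2 axes, for the 19 overlapping pairs around Aldh1a2 (circles), Cyp26b1 (triangles) and Rarb (squares), over the 4813 pairs of the lists (grey) and the line of equal folds (dashed). The pairs with log2 ratios of 1.43 at Aldh1a2 and -1.75 at Cyp26b1 stand farthest from the line among the 19.

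Of 16 further genes for synthesis, breakdown, reception and transport of retinoic acid, the distances at hand gave a start in mm9 for Rdh10, Rxra and Crabp1, and the other 13 were not analysed here. Rdh10, which makes the substrate of Aldh1a2, had 2 FL summits and 0 HL summits within 100 kb of its start, and 0 were called. Around Rxra, a partner of the retinoic acid receptors, 2 of 10 FL summits and 1 of 12 HL summits within 100 kb were called. Crabp1, a carrier of retinoic acid in the cytoplasm, had 2 called of 11 FL summits and 1 called of 6 HL summits. The called share was 20% in FLs and 8.33% in HLs at Rxra, and 18.2% and 16.7% at Crabp1, beside 17.5% and 10.3% of the lists, and these few summits are read as a description only. The highest summit around Crabp1 stood 19.5 kb from its start in both limbs, with folds of 5.12 in FLs (q = 4.78e-07) and 5.03 in HLs (q = 2.56e-05).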

How the data were processed

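The authors sequenced ChIP and input libraries of E10.5 limb buds (36 somites) as single reads of 50 bp, mapped them to mm9 with BWA and called peaks with MACS2, each limb's ChIP library against its own input. For peaks of a single limb the authors state a p-value cutoff of 0.0005. For peaks common to FLs and HLs they applied this value to the joint occurrence of a peak in both limbs. The deposited lists hold peaks with a p above 0.0005 too. That rule for common peaks was not applied here, and a pair not called here in 1 limb can still meet it. The submitters' processing notes also name CASAVA 1.8.2, cutadapt 1.3 and SAMtools. The deposited fold enrichment is a ratio of ChIP signal to input background. The deposited −log10 p-values and −log10 q-values are those of the authors' peak caller. The deposited score was not used. Both lists reach down to a p of 0.0220 in FLs and 0.0217 in HLs.

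Positions are counted from 1. Summits with the same start and end were taken as 1 peak with the highest fold and lowest q, and where several HL peaks overlapped 1 FL peak, the highest was its partner. Shares have 95% Wilson intervals, which cover counting error only. Starts in mm9 were derived from FL summits and the distances to genes in the part at hand of the study's peak annotation, within 2 bp. Those of Aldh1a2 and Cyp26b1 rest on 1 distance each, and that of Rarb on 7. Gene bodies and strands came from GENCODE M21 and RefSeq, both in GRCm38. Named were the 3 genes, their neighbours, a list of pathway genes, called summits, overlapping pairs and the summits nearest to starts. The members and lists were chosen with earlier results of these data known. Alternatives changed the cutoff, the unit counted, the window, the overlap and the measure of height. The code that counts overlaps was checked on simulated data with planted overlaps. That is a check of the counting only, and the overlap of these lists was not tested. Python 3.11.15, numpy 2.4.6, pandas 2.3.3, statsmodels and matplotlib were used.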

Additional observations from a re-analysis of the deposited data

How the results depend on the processing

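Of 45 planned comparisons of counts with an alternative setting, 32 stayed within 1.5 times the reported count and 13 did not. All 6 comparisons of log2 ratios stayed within 1.5 times the reported ratio before the log. Counting only summits within 100 kb of a gene start gave 3 of 6 FL and 3 of 8 HL summits called at Aldh1a2, and 0 of at most 1 in either limb at Cyp26b1 and at the outer start of Rarb. Around the inner start of Rarb, added after the data were seen, the same distance held 2 called FL summits and 1 called HL summit. Uncalled summits of both limbs lay there too, so this is a count of sites. It gives no share to set beside the 17.5% of the FL and 10.3% of the HL list. The stated cutoff for detecting peaks in a single limb, a p of at most 0.0005, was also tried. It gave 9 of 21 FL and 8 of 19 HL summits at Aldh1a2. At Cyp26b1 it gave 3 of 14 FL and 6 of 9 HL summits, and at Rarb 8 of 17 FL and 4 of 8 HL summits. In the whole lists, 32.1% of FL and 37.4% of HL summits passed it. A p of at most 1e-05 gave 2 of 8 HL summits at Rarb in place of 1. The share of the whole HL list at that cutoff was not counted, so this number has nothing to be set beside. Restricting the overlap to called FL peaks left 2 peaks at Cyp26b1, 4 at Rarb and 4 at Aldh1a2 with an HL partner. These were 2 of 2 called FL peaks at Cyp26b1, 4 of 5 at Rarb and 4 of 5 at Aldh1a2, beside 67.0% of all called FL peaks. These settings admit fewer or more summits by construction. The log2 ratio of the highest shared pair kept its sign under both settings tried, and with −log10 p as the height it was 0.71 at Cyp26b1 and 0.66 at Rarb, from 0.62 and 0.41, and was also higher at Aldh1a2.

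The depth of the libraries limits which weak summits pass a cutoff, and the reads were not analysed here. An HL peak short of the cutoff, as at 116 kb upstream of Rarb, is not evidence that binding was absent in HLs.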

Other observations

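Of the 12 summits nearest beyond the edges of the windows, 6 in each limb, 2 had a q of at most 0.05. They were an HL summit at Aldh1a2 and an FL summit at Rarb. In the whole lists 17.5% of FL and 10.3% of HL summits passed. The HL summit nearest beyond the Aldh1a2 window, 64.4 kb past its end at 71464446 of chromosome 9, had a fold of 6.79 (q = 5.47e-09), while the last HL summit inside had a fold of 2.88 and a q of 1. Below the Rarb window no summit of either list was found for 1314 kb, where an FL summit had a fold of 4.30 (q = 0.0206), and the first FL summit inside had a fold of 5.003 (q = 5.36e-04).

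Rdh10 had no called summit within 100 kb, but a wider look, chosen after its values were seen, found 2 of 7 FL summits and 3 of 8 HL summits called within 200 kb, beside 17.5% and 10.3% of the lists. The same distance gave 3 of 12 FL and 1 of 16 HL summits at Rxra, and 2 of 12 FL and 1 of 7 HL summits at Crabp1. The highest FL summit within 200 kb of Rdh10, 143 kb downstream, had a fold of 11.8 (q = 1.50e-23), which was above every FL fold around Aldh1a2, Cyp26b1 and Rarb. The highest HL summit around Rdh10 was at another place, 124 kb downstream, with a fold of 7.06 (q = 9.89e-11).

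Many folds and p-values recurred exactly in the lists. The 22906 FL summits had 1177 different p-values, and 32 of the 52 FL summits around the 3 genes had a p that 100 or more FL summits shared. In HLs 19 of the 36 did. The values of weak summits thus moved in steps.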
